A study of Mus musculus with 9 samples.

Results

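Myotubes after 5 days in differentiating medium were compared with cycling myoblasts, using 6 of the 9 arrays of a time course of muscle differentiation in mouse cells. Both groups were primary cells of wild type Balb/c skeletal muscle, and each had 3 arrays: cycling myoblasts at day 0 and myotubes at day 5. Total RNA was hybridised to Affymetrix arrays after biotin labelling. A differentiating medium is named in the titles of the myotube samples, whereas the growth protocol lists one serum-rich medium with fibroblast growth factor for every sample, and which of these the myotubes received rests on the titles alone. The labels do not say whether the 3 arrays of a group came from separate cultures or animals, and p-values therefore measure only how far these arrays differ among themselves, possibly for technical reasons.

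Myoblasts are the dividing precursors of skeletal muscle. When they differentiate they leave the cell cycle, line up and fuse into multinucleate myotubes, which then build sarcomeres, the repeated units of myosin and actin filaments that contract. The program is driven by the myogenic bHLH factors (Myf5, MyoD, myogenin and Mrf4) together with MEF2 factors, and is held back in dividing cells by Id proteins and Notch signalling. A maturing myotube also replaces many widely expressed proteins with muscle forms encoded by related genes, among them creatine kinase, actin, alpha-actinin and the cytochrome c oxidase subunits.

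The deposited values are log2 expression values that were normalized within each time point and not across time points, so that time point and normalization cannot be told apart. Cycling arrays had a median of 4.34 and day 5 arrays one of 3.99, with 75th percentiles of 6.66 and 5.70. Each difference is therefore given as day 5 minus cycling myoblasts, in log2 units, first on the values as deposited and then on a common scale, on which quantile normalization gave all 9 arrays one distribution. Over all 16582 genes tested the deposited values gave a median difference of -0.37 and the common scale one of 0.17, so the scales differ by 0.55 for the typical gene. A gene is called higher or lower, or is said to have risen or fallen, where limma's adjusted p was below 0.05 and the difference was at least 1 (2-fold) in one direction on both scales. Low side marks a change whose smaller level did not exceed the filter value on any of the 3 arrays of that group, and under median one whose smaller level lay under the array median. The size of such changes is uncertain. Neither scale measures RNA per cell, and in these bulk samples fewer cells of a type and less RNA per cell cannot be told apart.

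At day 5 the genes that had risen were led by those of contraction, calcium handling and muscle energy metabolism, and those that had fallen by genes of cell division, RNA processing and the nonmuscle actin cytoskeleton. Of 16582 tested genes 736 (4.44%) were higher and 2040 (12.3%) lower. The counts of every gene list below are to be read against these shares. At least 4-fold on both scales were 221 of the higher and 659 of the lower genes, and at least 8-fold were 85 and 241. The smaller level was low side for 121 of the higher and 214 of the lower genes, and under the array median for 293 and 609. No called gene had an adjusted p above 0.00317 as deposited or 0.00297 on the common scale (limma, Benjamini-Hochberg). These p-values are too small, because normalization within a time point left many probe sets with one value on all 3 arrays of a group. The SEs of called genes reached at most 0.239 as deposited and 0.257 on the common scale, and the SD within a group at most 0.43. In all 2776 called genes the values of the groups did not overlap as deposited. A 2-fold minimum with such small spreads nearly fixes this in advance, so it adds no support to the calls. The share without overlap over all tested genes was not counted.

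The scale decided how the changes split between directions. As deposited 736 genes (4.44%) were higher and 4840 (29.2%) lower, and on the common scale 1960 (11.8%) were higher and 2040 (12.3%) lower. Higher genes thus made up 13.2% of the changes as deposited, 49.0% on the common scale and 26.5% where both scales were required. At any size, 4921 genes (29.7%) were higher and 6326 (38.1%) lower on both scales, and for 4503 genes the difference was below 0 as deposited and above 0 on the common scale.

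**Figure D1:**
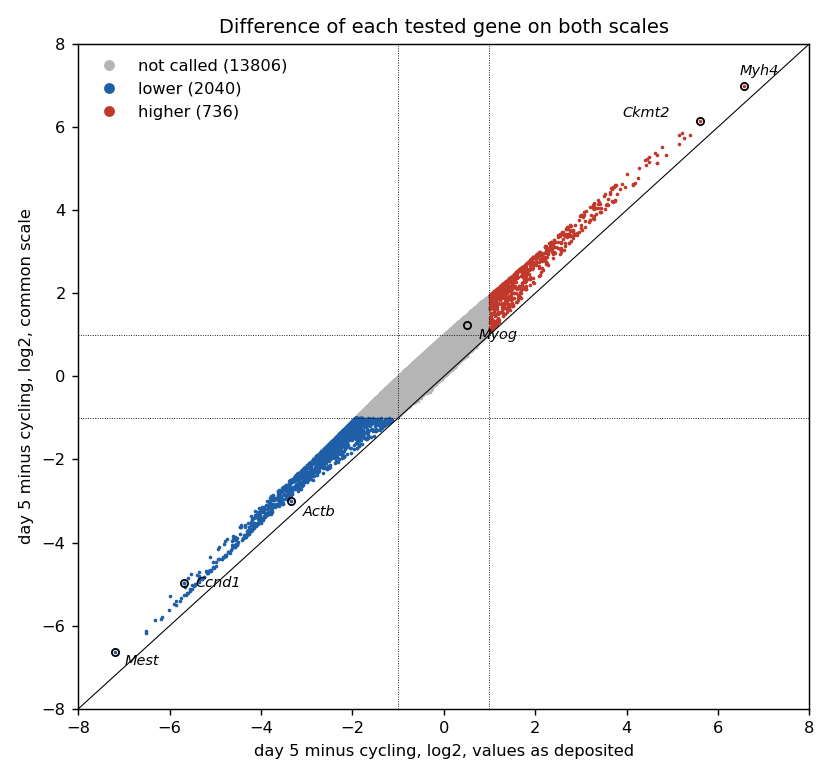
Each point is 1 of the 16582 tested genes, placed by its difference between day 5 myotubes and cycling myoblasts (log2) as deposited on the x axis and on the common scale on the y axis; the solid line marks equal values and dotted lines mark a 2-fold change. Most genes lie above the line of equal values, the 736 higher genes reach 6.58 as deposited at Myh4, and the 2040 lower genes reach -7.20 at Mest.

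Most markers of both cell states moved in the direction of the labels. All 8 myotube markers lay above the array median in both groups, so that level does not set the groups apart. At day 5, 7 of them had risen, Myog (0.51 and 1.25) being the one not called. The 8 myoblast markers also lay above the array median in both groups. Of these 5 fell, among them Pax7, Myf5 and Vcam1, while desmin, which is kept in mature muscle, rose (Des, 1.13 and 1.69). None of 6 endothelial markers lay above the array median in either group. Of 6 macrophage markers 1 did in cycling cells, the lysosomal protein gene Cd68 (mean 4.82, and 3.81 at day 5), and 0 did at day 5. Of 7 fibroblast markers with a probe set, 3 lay above the array median in cycling cells and 4 at day 5. Col1a1 (means 5.35 and 4.96) and Thy1 (means 5.03 and 4.68) did so in both groups and were not called. Col3a1 fell (-4.15 and -3.41) but also stayed above it (mean 4.77 at day 5). Dcn and Lum lay below the filter, and no fibroblast marker rose. In the smooth muscle list Tagln fell (under median, -2.81 and -2.21) and desmin, which that list shares, rose, while Acta2 stood high in both groups (means 11.03 and 9.67) and was not called. The cardiac list had 1 member that rose, Myl4 (2.62 and 3.04), an atrial and embryonic light chain that developing skeletal muscle also uses. Of 6 cardiac markers 2 lay above the array median in cycling cells and 3 at day 5. Nkx2-5 (means 5.86 and 5.35) did so in both groups and was not called. Of 4 glia markers with a probe set 1 lay above it in cycling cells and 2 at day 5, and 0 were called. Of 6 adipocyte markers 2 lay below the filter (Adipoq and Fabp4), 0 were called, and 2 lay above the array median in both groups, Pparg (means 5.63 and 4.82) and Plin1 (means 4.46 and 4.26).

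**Figure D2:**
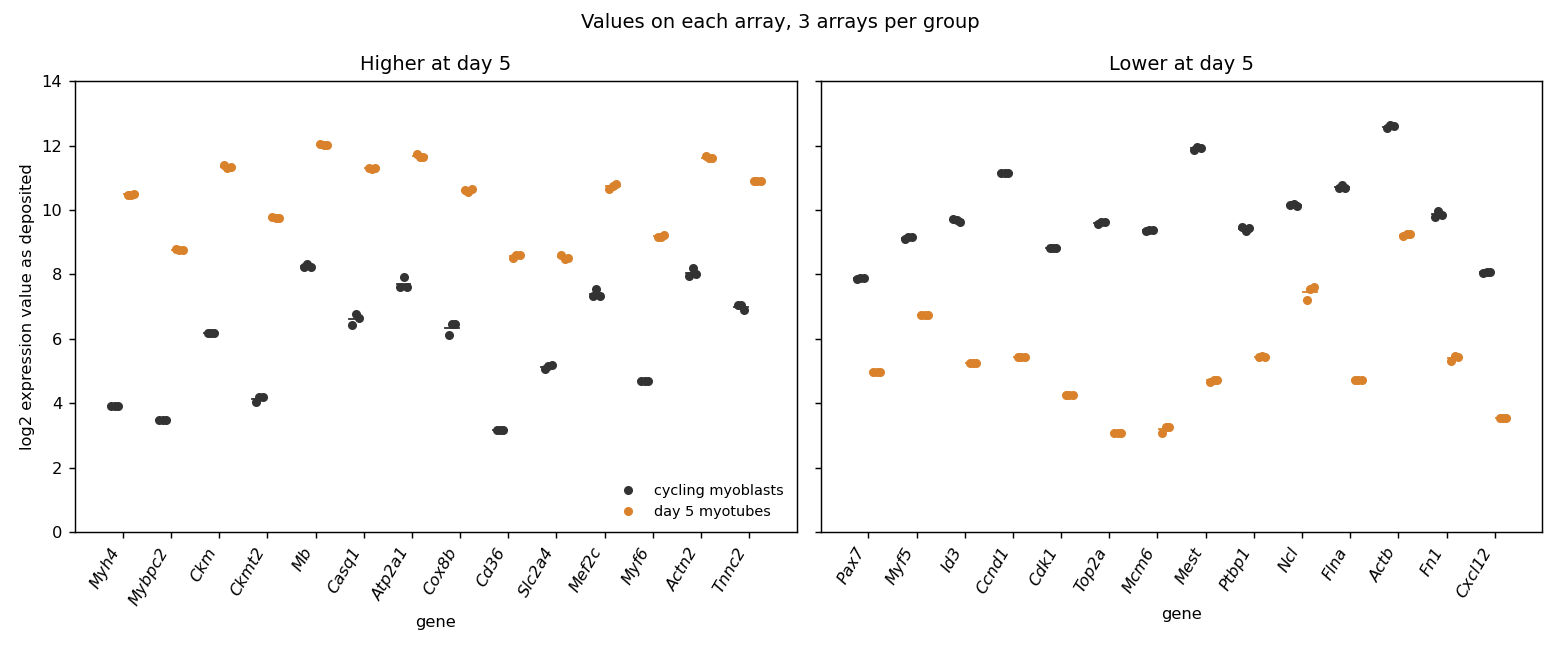
Log2 expression as deposited (y axis) of 14 genes that were higher and 14 that were lower at day 5, one point per array and a line at each group's mean, with cycling myoblasts in dark grey and day 5 myotubes in orange. All genes drawn were called, which nearly fixes in advance that the arrays of one group lie apart from those of the other. Myh4 lies at 3.91 against 10.48 and higher, and Mcm6 at 9.35 and higher against 3.26 and lower.

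Most genes of the contractile apparatus rose. Of 23 genes of the myosin thick filament 18 rose and 0 fell, with a median difference of 3.0 and 3.56. The fast myosin heavy chain Myh4 read 3.91 on each cycling array and 10.48, 10.48 and 10.50 at day 5, a difference of 6.58 and 7.0 (under median). It went from below the median of all probe sets to among the highest values on the array. Mybpc2, the fast form of myosin-binding protein C, read 3.49 on each cycling array and 8.78, 8.74 and 8.74 at day 5 (under median, 5.27 and 5.74), and its slow counterpart Mybpc1 read 5.89, 5.96 and 5.96 and then 10.67, 10.73 and 10.73 (4.77 and 5.51). Both the slow and the fast form of myosin-binding protein C thus rose. Myh1, another fast heavy chain, rose from 6.85, 7.19 and 6.97 to 11.44 on each array (4.44 and 5.08). The developmental heavy chains rose less than Myh1, Myh3 (embryonic), already high in cycling cells, from 8.29, 8.78 and 8.43 to 10.63, 10.66 and 10.63 (2.14 and 2.77) and Myh8 (perinatal) from 6.09 to 9.39 on each array (3.30 and 4.17). Of the 5 members not called, the slow heavy chain Myh7, picked out after its values were seen, differed by -0.62 as deposited and 0.31 on the common scale.

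Thin filament genes followed with 18 of 22 higher, a median of 1.71 and 2.25, and 1 member lower. The fast troponins Tnnc2, which binds calcium, and Tnni2, which inhibits the actin-myosin interaction, read 7.05, 7.05 and 6.88 and 6.39, 6.44 and 6.44 in cycling cells against 10.89 and 10.11 on each day 5 array (3.90 and 4.62, and 3.69 and 4.50). Tmod1, which caps the pointed ends of actin filaments, rose by 3.37 and 4.24. Xirp2, a repeat protein of the myofibril, rose from 4.31 on each cycling array to 7.19, 7.23 and 7.79 (under median, 3.10 and 3.75), with the widest spread at day 5 of the genes named in this list. The member that fell was the tropomyosin gene Tpm3, from 10.79, 10.80 and 10.79 to 7.41, 7.52 and 7.50 (-3.31 and -2.53). Tpm3 makes both muscle and nonmuscle tropomyosins, and a second probe set of the same gene differed the other way (0.31 and 1.19), so that the mean of its probe sets was no longer called (-1.48 as deposited).

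Z-disc and M-band genes, which anchor the filaments, had 15 of 29 members higher and 0 lower (median 1.0 and 1.62). Ankrd23, an ankyrin repeat protein that binds titin, rose from 4.69, 4.80 and 4.80 to 9.98 on each array (5.22 and 5.86), the highest of the list. Hspb7, a small heat shock protein of muscle, rose from 4.96 to 9.59, 9.59 and 9.60 (4.63 and 5.37). Titin-cap (Tcap, 3.06 and 3.84) and sarcomeric alpha-actinin (Actn2, 3.58 and 4.14) also rose. Set against the 4.44% of all tested genes that were higher, these 3 contractile lists had the largest share of higher members together with the calcium and channel genes described next.

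Genes that couple membrane excitation to contraction rose in 16 of 25 cases, with 0 lower and a median of 1.5 and 2.22. Calsequestrin (Casq1), which stores calcium in the sarcoplasmic reticulum, read 6.43, 6.77 and 6.66 in cycling cells and 11.31, 11.28 and 11.30 at day 5 (4.67 and 5.34). The fast calcium pump Atp2a1 rose from 7.60, 7.92 and 7.60 to 11.75, 11.63 and 11.65 (3.97 and 4.55). Hrc, a calcium-binding protein of the same store (3.29 and 4.07), and Trim72, a membrane repair protein (3.27 and 4.09), rose as well. In each of these the lowest day 5 array was above the highest cycling array, which a call nearly fixes in advance. Of 16 channels and pumps of the fibre surface 9 rose and 0 fell (median 1.12 and 1.76), among them the potassium channel Kcnj2 (low side, 3.03 and 3.53), Fxyd1, a regulator of the sodium pump (2.63 and 3.40), and Abcc9, a subunit of ATP-sensitive potassium channels (under median, 2.12 and 2.83). Best3 rose too (low side, 2.17 and 2.55).

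The synapse and the membrane complex moved less. Of 17 neuromuscular junction genes 3 rose and 2 fell, against 4.44% and 12.3% of all genes. Acetylcholinesterase rose from 3.37 on each cycling array to 6.23 (Ache, under median, 2.86 and 3.39), its collagen anchor Colq by 1.19 and 2.01 and the receptor kinase Musk by 1.01 and 1.80. The rise of Musk lay at the threshold, and it was no longer called without the third cycling array (1.0) or the third day 5 array (0.99), as deposited. Agrin, the nerve signal that Musk responds to, fell from 7.02 to 4.82 (Agrn, -2.20 and -1.33), as did neuregulin (Nrg1, under median, -1.52 and -1.04). The fetal and adult acetylcholine receptor subunits Chrng (0.49 and 1.09) and Chrne (0.97 and 1.46) were not called. In the dystrophin complex 2 of 18 rose, dystrophin from 4.23 to 6.27, 6.28 and 6.47 (Dmd, under median, 2.11 and 2.80) and dysferlin (Dysf, 1.94 and 2.84), and epsilon-sarcoglycan fell (Sgce, -2.47 and -1.78).

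The myogenic factors split. Mrf4, the late bHLH factor encoded by Myf6, rose from 4.68, 4.71 and 4.71 to 9.16, 9.16 and 9.23 (4.48 and 5.16), and Mef2c from 7.34, 7.55 and 7.34 to 10.64, 10.75 and 10.79 (3.32 and 4.04). The early factors fell, Myf5 from 9.10, 9.16 and 9.16 to 6.75 (-2.39 and -1.55) and Myod1 from 11.47, 11.63 and 11.58 to 9.52 (-2.04 and -1.43). Myod1 still lay far above the day 5 median of 3.99. Of 32 factors 5 rose and 5 fell, against 4.44% and 12.3% of all genes. Besides those named, Tbx15 (2.73 and 3.60), Sox6 (under median, 1.48 and 2.13), a repressor of slow fibre genes, and Tead4 (1.11 and 2.05) rose, and Six4 (-2.63 and -1.75) and the E proteins Tcf12 (-2.65 and -1.78) and Tcf3, named after its values were seen, fell. Myogenin read 8.93, 9.46 and 9.07 in cycling cells and 9.66 on each day 5 array, and the cycling arrays were thus already high.

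Among genes of the stem and precursor state more fell than rose. The counts are to be read against the 12.3% of all genes that fell and the 4.44% that rose. In the satellite cell list 9 of 20 fell and 1 rose (median -1.67 and -0.83). Pax7, the defining factor of satellite cells, read 7.86, 7.89 and 7.89 and then 4.97 on each array (-2.91 and -2.08). The chemokine receptor Cxcr4 fell from 9.72, 9.75 and 9.72 to 4.35, 4.40 and 4.20 (-5.41 and -4.78), the adhesion molecule Vcam1 from 9.28, 9.30 and 9.34 to 4.10 (-5.21 and -4.68), and the growth factor receptors Fgfr4 (-4.46 and -3.79) and Met (-4.20 and -3.43) fell with them. Spry1, an inhibitor of growth factor signalling, was the member that rose (1.16 and 2.10). Of 23 Notch pathway genes 5 fell and 0 rose: the receptors Notch2 (-2.80 and -1.98) and Notch3 (-2.62 and -1.84), the glycosyltransferase Lfng (under median, -3.91 and -3.34), the target Hes1 (-2.12 and -1.22) and the DNA-binding factor Rbpj, whose other probe set, at a low level, differed the other way (0.70 and 0.78) and whose mean of probe sets was not called (-0.63 as deposited). Inhibitors of the bHLH factors fell in 6 of 20 cases. Id1 (-3.63 and -2.82), Id2 (-4.46 and -3.61) and Id3 (-4.43 and -3.62) fell together, Id3 from 9.71, 9.70 and 9.63 to 5.25 on each array. Snai2, which occupies E-boxes in myoblasts, fell from 9.37, 9.29 and 9.29 to 3.81 (under median, -5.51 and -5.03), while Bhlhe40 rose (under median, 3.21 and 3.77).

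Fusion and adhesion genes went both ways, with 5 of 32 higher and 8 lower, against 4.44% and 12.3% of all genes. The fusogen myomaker rose from 9.57, 9.82 and 9.63 to 11.48, 11.31 and 11.36 (Mymk, 1.71 and 2.26). Its partner myomixer was not called, at 5.45, 5.50 and 5.50 against 4.87 on each day 5 array (Mymx, -0.61 and 0.23), and its direction differed between the scales. Caveolin-3 (Cav3, 3.10 and 3.97), the muscle membrane protein Tmem182 (2.40 and 3.18), dysferlin and Jam2, named after its values were seen, made up the rest of those that rose. Kirrel (-4.02 and -3.42), an adhesion protein, myoferlin (Myof, -3.0 and -2.14), Cd44 (-3.05 and -2.29) and integrin alpha-3 (Itga3, -2.81 and -1.97) were among those that fell.

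Division genes had the largest share of called members among the 54 lists. Of 63 genes of the kinetochore, spindle and cytokinesis 62 fell and 0 rose, against 12.3% of all genes that fell, with a median of -4.55 as deposited and -3.90 on the common scale. For 27 of the 62 the day 5 level was low side. Without any 1 of the 3 cycling arrays, 41 members passed the filter, which asks for 3 arrays above its value, and 40 of them fell. The remaining members passed only through the cycling arrays, where they were high. A fall was the only call open to those members, so their direction adds no support. The proliferation marker Mki67 read 8.74 on each cycling array and 2.87 on each day 5 array (low side, -5.87 and -5.50), and topoisomerase Top2a 9.58, 9.61 and 9.61 and then 3.08 (low side, -6.52 and -6.13). Anln (low side, -6.51 and -6.18) and Ect2 (under median, -5.76 and -5.33) of the cleavage furrow, Nuf2 of the kinetochore (low side, -6.01 and -5.63), and cyclin A (Ccna2, under median, -5.44 and -5.0) fell as far. The checkpoint protein gene Bub3, singled out after its values were seen, was the member not called (-1.57 and -0.78).

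DNA replication genes fell in 40 of 50 cases with 0 higher (median -2.78 and -2.01). The replicative helicase subunit Mcm6 went from 9.35, 9.38 and 9.38 to 3.07, 3.26 and 3.26 (under median, -6.17 and -5.79), and ribonucleotide reductase Rrm2, which makes deoxynucleotides, from 10.80 to 5.27 (-5.53 and -4.75). The histone chaperone Chaf1b (under median, -4.70 and -4.22) and Mcm4 (-4.63 and -4.06) fell too. Of 25 genes of the G1/S transition 15 fell and 0 rose. Cyclin D1 was at 11.13 on each cycling array and 5.45 at day 5 (Ccnd1, -5.68 and -4.97), while Cks1b (-4.07 and -3.39), Ccne2 (under median, -3.70 and -3.14) and Foxm1 (under median, -3.65 and -3.10) fell less. In the list of CDK inhibitors, pocket proteins and cell cycle exit genes 0 of 22 rose and 4 fell, namely Rbl1 (-3.36 and -2.60), Gadd45g (-3.08 and -2.23), Gas1 (-2.45 and -1.59) and Mdm2 (-1.85 and -1.04). The inhibitor gene Cdkn1a had no probe set naming it alone and was not analysed here.

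DNA repair genes fell with the replication genes, 23 of 31 with 0 higher (median -2.97 and -2.34). Chek1, the replication checkpoint kinase (under median, -4.76 and -4.29), the glycosylase Neil3 (low side, -4.58 and -4.11) and Brca1 (under median, -3.83 and -3.29) were the lowest. Among chromatin regulators 21 of 46 fell and 2 rose. Uhrf1, which maintains DNA methylation, fell from 8.59 to 2.81 on each array (low side, -5.78 and -5.40), the remodeller Hells by as much (low side, -5.46 and -5.03), and the chromatin proteins Hmgb2 (-4.22 and -3.57) and Hmga2 (-3.97 and -3.27) followed. The members that rose have known roles in muscle: the methyltransferase Smyd1, a myosin chaperone partner (1.10 and 1.90), and the deacetylase Hdac9, a MEF2 repressor (under median, 1.26 and 1.67). Of 23 nuclear envelope genes 12 fell and 0 rose, with lamin B1 from 8.17, 8.18 and 8.17 to 4.35, 4.35 and 4.21 (Lmnb1, -3.87 and -3.20), the nucleoporin Nup205 (-2.99 and -2.14), the linker protein Syne2 (under median, -2.90 and -2.33) and Tmpo (-2.78 and -1.93) among them.

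RNA processing fell on a similar scale. Of 35 splicing regulators 21 fell and 2 rose (median -1.96 and -1.16). Ptbp1, the polypyrimidine tract protein that represses muscle and nerve exons, read 9.46, 9.35 and 9.45 and then 5.44, 5.46 and 5.44 (-3.97 and -3.16), and its relative Ptbp3 fell from 9.38 to 5.55 (-3.83 and -3.0). Srsf1 fell from 10.20, 10.20 and 10.17 to 7.06, 7.23 and 7.33 (-2.98 and -2.13) and Mbnl3 by -3.08 and -2.56 (low side). Rbfox1, a splicing factor of muscle and brain, rose from 4.59 to 7.25 (2.66 and 3.38), as did Rbm38 (1.06 and 1.98). Ribosome biogenesis fell in 19 of 43 cases with 0 higher (median -1.76 and -0.84): nucleolin from 10.17, 10.18 and 10.13 to 7.22, 7.53 and 7.61 (Ncl, -2.71 and -1.87), Nop58 from 9.55, 9.56 and 9.53 to 6.53, 6.86 and 6.98 (-2.76 and -1.92) and Utp20 from 7.94 to 4.82 (-3.12 and -2.31). In Srsf1, nucleolin and Nop58 the first day 5 array was the lowest of its group.

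Few genes of the translation machinery reached 2-fold. Of 34 translation factors 2 fell, Pabpc1 (-2.42 and -1.83) and Eif5a2 (under median, -2.25 and -1.65), and 0 rose. Of 58 cytosolic ribosomal protein genes 3 fell, Rpl12 (-2.78 and -2.05), Rpl30 (-2.69 and -1.83) and Rps12 (-1.83 and -1.08), and Rpl3l, a form made in muscle, rose from 3.06 to 4.72 (low side, 1.66 and 2.04). Both shares of falls lay under the 12.3% of all genes, but at any size 17 of the 34 factors and 34 of the 58 ribosomal protein genes were lower on both scales, against 38.1% of all genes. The elongation factor Eef1a1 read 12.92, 12.97 and 12.96 in cycling cells and 12.69, 12.65 and 12.65 at day 5. Of 38 genes of the amino acid response and tRNA charging 2 rose, near the 4.44% of all genes. They were the cationic amino acid transporter Slc7a3 (under median, 2.70 and 3.35) and Trib3 (1.88 and 2.78).

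Lists of protein quality control are to be read against the 4.44% of all genes that rose and the 12.3% that fell. Of 43 heat shock proteins and cochaperones 8 rose, and 5 fell, the falls being near the share of all genes. Those that rose included the muscle forms Hspb7, Hspb3 (2.25 and 3.05) and Hspb2 (2.01 and 2.92), and Unc45b, the myosin chaperone, which went from 4.92, 5.25 and 5.07 to 7.56, 7.49 and 7.49 (2.43 and 3.25). Its widely expressed relative Unc45a fell from 7.77 to 5.49, 5.49 and 5.38 (-2.32 and -1.42). Hsp90aa1 fell from 11.62, 11.63 and 11.62 to 8.48, 8.96 and 9.28 (-2.72 and -2.12), with a wide spread between the day 5 arrays, and Dnajb1 (-2.59 and -1.71) and Hspd1 (-1.84 and -1.11) fell too. Ubiquitin ligases and substrate adaptors of muscle rose in 14 of 34 cases with 1 lower: Asb2 from 5.44 to 9.21, 9.19 and 9.19 (3.75 and 4.58), Asb11 from 3.45 to 7.71 (under median, 4.26 and 4.77), Fbxo40 (3.65 and 4.44) and Asb12 (low side, 3.60 and 4.12). The proteasome had 0 of 44 higher and 1 lower, Psmb8 of the immunoproteasome (under median, -2.79 and -2.22). Of 42 autophagy and lysosome genes 4 rose and 0 fell, including Map1lc3a (1.83 and 2.72) and Tfeb (1.38 and 2.12), a regulator of lysosomal genes. The unfolded protein response had 2 of 33 higher and 3 lower, near the 4.44% and 12.3% of all genes. Herpud1 (1.68 and 2.42) and Atf3 (1.57 and 2.44) were higher, and Pdia3 (-1.81 and -1.15), Pdia4 (-1.96 and -1.14) and Sec61b (-2.06 and -1.15) lower.

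**Figure D3:**
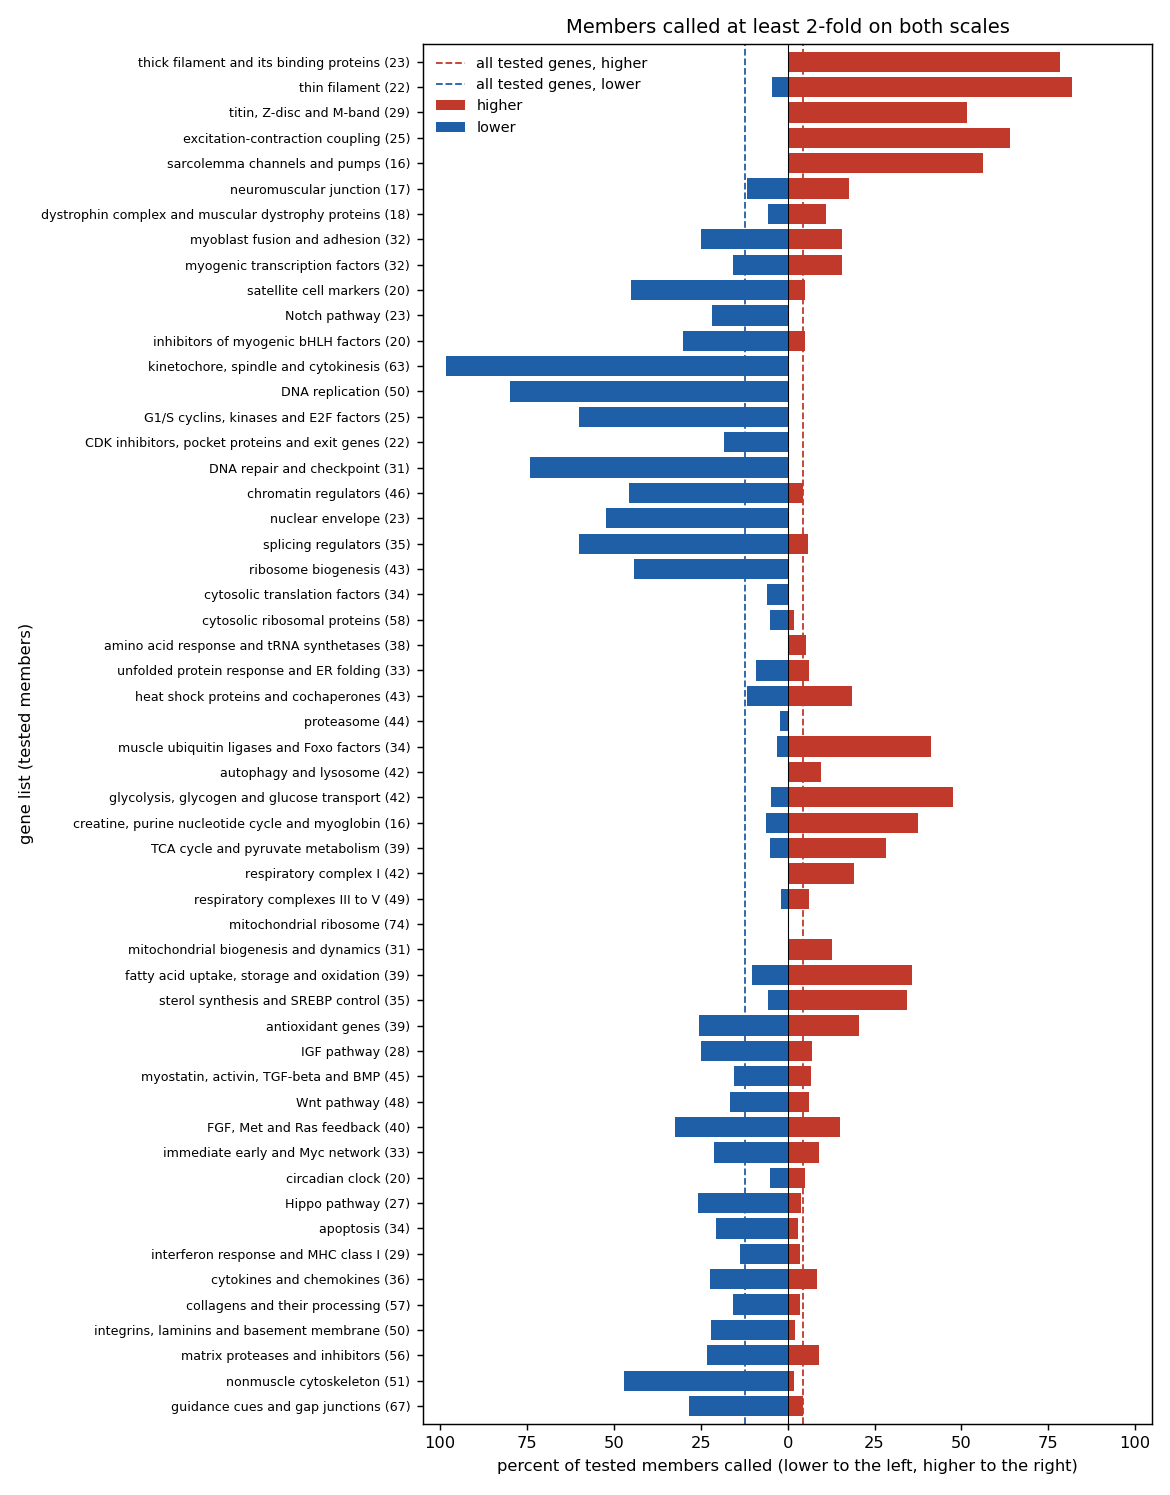
Percent of the tested members of each of 54 gene lists that were higher (red, to the right) or lower (blue, to the left) at day 5, at least 2-fold on both scales, with the number of tested members in parentheses; dashed lines give the shares over all 16582 genes, 4.44% higher and 12.3% lower. Contractile and calcium lists reach furthest to the right, the kinetochore and spindle list reaches furthest to the left with 62 of 63 members, and the mitochondrial ribosome has no bar, with 0 of 74 called. Part of the kinetochore and spindle members passed the filter only through the cycling arrays, so only a fall could be called for them.

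Energy metabolism shifted toward the pathways that supply contracting fibres. The creatine kinase system, which buffers ATP, showed some of the largest rises: muscle creatine kinase went from 6.19 on each cycling array to 11.40, 11.29 and 11.34 (Ckm, 5.16 and 5.81) and the mitochondrial form from 4.03, 4.21 and 4.21 to 9.77, 9.74 and 9.74 (Ckmt2, under median, 5.60 and 6.15). Myoglobin, the oxygen store, rose from 8.24, 8.33 and 8.24 to 12.06, 12.01 and 12.01 (Mb, 3.76 and 4.23), and AMP deaminase from 3.76, 3.88 and 3.83 to 7.39, 7.35 and 7.39 (Ampd1, under median, 3.55 and 4.13). In this list 6 of 16 rose and 1 fell. Glycolysis, glycogen and glucose transport had 20 of 42 higher and 2 lower (median 0.88 and 1.45). The insulin-responsive glucose transporter Slc2a4 went from 5.06, 5.16 and 5.18 to 8.60, 8.49 and 8.51 (3.40 and 4.20), phosphofructokinase Pfkm by 2.88 and 3.42 and glycogen phosphorylase Pygm by 2.44 and 2.96. Ppp1r3a, which targets phosphatase to glycogen, rose from 2.65 to 6.23, 6.39 and 6.59 (low side, 3.75 and 4.25). The 2 that fell were Pgm2 (-3.10 and -2.41) and Pgam1 (-2.09 and -1.27), each of which has a relative that rose, Pgm5 (3.21 and 4.09) and Pgam2 (3.26 and 4.06).

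Fatty acid handling rose in 14 of 39 cases and fell in 4. Cd36, the fatty acid transporter, went from 3.18 on each cycling array to 8.50, 8.60 and 8.61 (under median, 5.39 and 5.81), and the thiolase Acaa2 of beta-oxidation from 6.95, 6.97 and 6.97 to 9.63, 9.53 and 9.53 (2.60 and 3.48). The widely expressed carnitine palmitoyltransferase Cpt1a fell from 8.65, 8.77 and 8.77 to 4.80 (-3.93 and -3.19), and the lipid droplet protein Plin2 fell by -2.27 and -1.46. Lipid synthesis also moved. Of 35 sterol and SREBP genes 12 rose and 2 fell, with the desaturase Scd1 rising from 3.26 to 7.92 on each array (under median, 4.66 and 5.13), the acetyl-CoA synthetase Acss2 from 4.80 to 8.21 (3.42 and 4.15) and Fdps of the mevalonate pathway by 1.94 and 2.84. The polyunsaturated fatty acid genes Elovl5 (-2.62 and -1.76) and Fads1 (-2.62 and -1.74) fell.

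The mitochondrial lists differed in how many members were higher. In complex I, 8 of 42 reached 2-fold, Ndufb9 from 8.08, 8.26 and 8.31 to 9.48 on each array among them (1.26 and 2.06), while 32 were higher at any size on both scales against 29.7% of all genes. In complexes III to V, 37 of 49 were higher at any size and 3 reached 2-fold, and all 3 are muscle forms of cytochrome c oxidase subunits: Cox7a1 from 5.41 to 9.81, 9.81 and 9.84 (4.41 and 5.20), Cox8b from 6.13, 6.45 and 6.45 to 10.61, 10.57 and 10.64 (4.26 and 5.01) and Cox6a2 from 5.96 to 9.76, 9.68 and 9.73 (3.76 and 4.61). Cox6b2, a form known from testis, fell (-3.08 and -2.39). The citric acid cycle and pyruvate list had 11 of 39 higher and 2 lower, with the pyruvate dehydrogenase kinases moving apart, Pdk2 from 5.99 to 8.76, 8.66 and 8.66 (2.71 and 3.59) and Pdk3 from 7.56, 7.69 and 7.71 to 4.76 (-2.89 and -2.08). None of 74 mitochondrial ribosome genes was called 2-fold in either direction, and at any size 15 were higher, a smaller share than the 29.7% of all genes, and 4 lower. Of the regulators of mitochondrial mass and shape 4 of 31 rose: the nuclear receptors Esrrb (1.57 and 2.35) and Esrrg (under median, 1.35 and 2.03), Mfn2, which fuses outer membranes (1.24 and 2.0), and Mtfp1 (1.04 and 1.95).

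Antioxidant genes moved in both directions, 8 of 39 higher and 10 lower, against 4.44% and 12.3% of all genes. The secreted enzymes Gpx3 (2.77 and 3.51), from 7.49, 7.72 and 7.72 to 10.41, 10.34 and 10.48, Sod3 (under median, 1.72 and 2.19) and the selenium carrier Selenop (under median, 2.08 and 2.65) rose. Both subunits of the enzyme that starts glutathione synthesis fell, Gclm from 9.52, 9.67 and 9.64 to 6.21 (-3.40 and -2.52) and Gclc from 8.38 to 5.79 (-2.59 and -1.72), as did Nqo1 (-2.51 and -1.63) and Prdx4 of the endoplasmic reticulum (under median, -4.15 and -3.58).

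Muscle forms and other forms of one protein were also set side by side. In 29 pairs of a muscle form and another form of the same protein family with both tested, 22 muscle forms rose and 0 fell, while 2 of the other forms rose, 8 fell and 19 were not called. In 28 of 29 pairs the muscle form had the greater difference on both scales, the exception being the adaptors Stac3 and Stac. These pairs were chosen as muscle and other forms with earlier results of these data known, so the count is a description. In 6 pairs the muscle form rose while the other fell. Heart and muscle fatty acid binding protein rose from 5.23, 5.65 and 5.65 to 10.00 on each array (Fabp3, 4.49 and 5.27), and Fabp5 fell from 7.70, 7.78 and 7.78 to 3.91 (under median, -3.85 and -3.27). Skeletal actin rose from 10.87, 11.00 and 10.88 to 12.22, 12.21 and 12.21 (Acta1, 1.29 and 1.64), and beta-actin fell from 12.54, 12.62 and 12.59 to 9.21, 9.25 and 9.25 (Actb, -3.35 and -3.0). Actn2 against Actn1 (-2.58 and -1.72), Tpm2 (1.47 and 2.07) against Tpm4 (-4.22 and -3.36), Adssl1 (2.54 and 3.38) against Adss (-4.14 and -3.33) and Pgam2 against Pgam1 were the other pairs of that kind.

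In several further pairs only one side moved past 2-fold on both scales. The fall alone was called for filamin, where the nonmuscle form went from 10.68, 10.79 and 10.68 to 4.72 (Flna, -6.0 and -5.29) while the muscle form was not called (Flnc, 0.30 and 1.07). It was likewise called alone for Actn4 (-2.85 and -2.08) against Actn3 (0.82 and 1.44). The rise alone was called for Ckm against Ckb (-1.16 and -0.21), Cox8b against Cox8a (-1.15 and -0.36), Slc2a4 against Slc2a1 (-1.47 and -0.69) and Dmd against utrophin (Utrn, -1.66 and -0.73). For the calcium pumps both forms rose, Atp2a1 by 3.97 and 4.55 and Atp2a2 by 1.02 and 1.62 (0.98 as deposited without the first cycling array, and then not called), and so did the myosins Myh4 and Myh3.

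**Figure D4:**
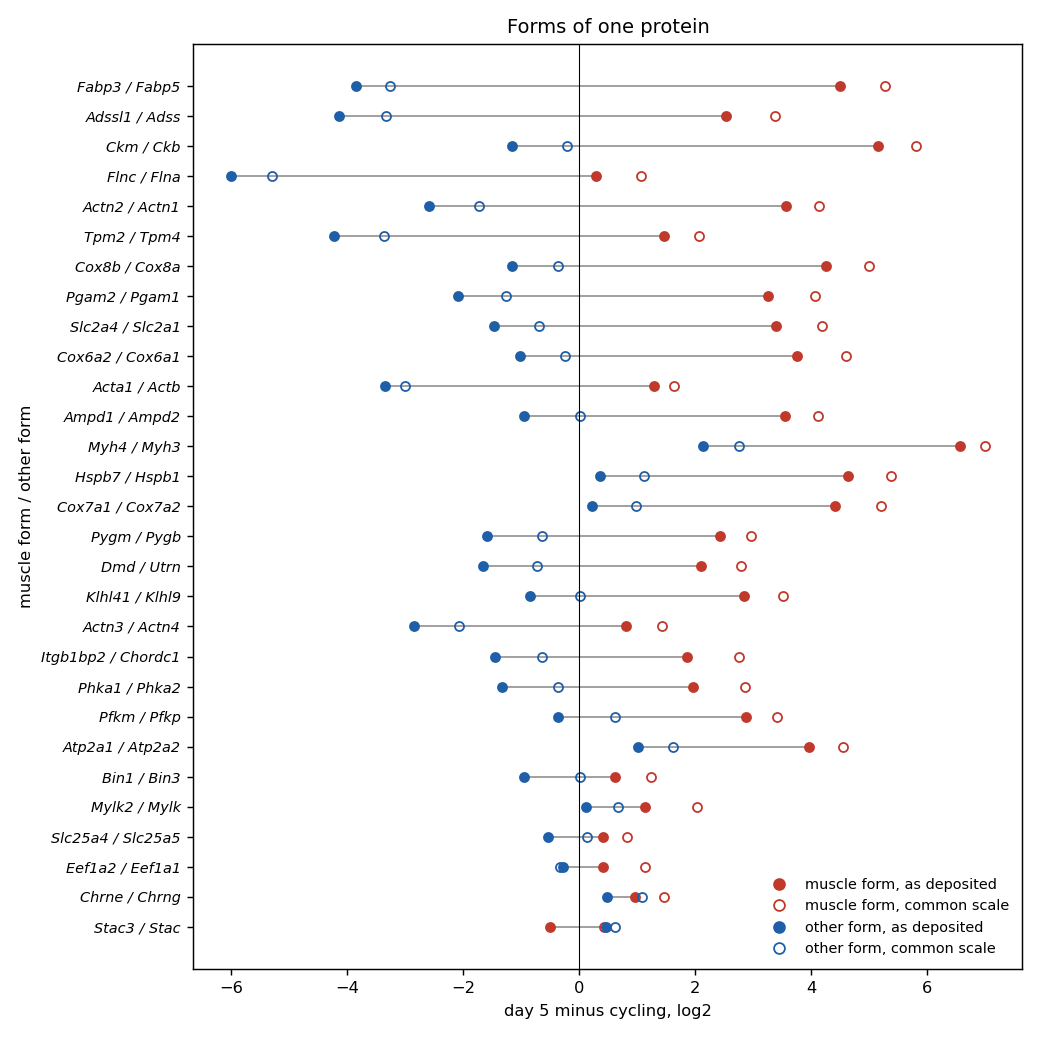
Difference between day 5 myotubes and cycling myoblasts (log2, x axis) for the muscle form (red) and the other form (blue) of 29 protein pairs (y axis), filled circles as deposited and open circles on the common scale, ordered by the gap as deposited. The muscle form lies to the right of the other form on both scales in 28 of 29 pairs, and the gap is widest for Fabp3 (4.49) against Fabp5 (-3.85) as deposited.

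Growth factor signalling genes changed in both directions. In the FGF, Met and Ras list 13 of 40 fell and 6 rose, against 12.3% and 4.44% of all genes (median -1.26 and -0.50). Besides Fgfr4 and Met, the heparan sulfate proteoglycan Sdc3 (-3.86 and -3.15) and the phosphatase Dusp4 (-3.73 and -2.98) fell. The ligands moved the other way: Fgf21, a secreted hormone, rose from 5.68, 5.86 and 5.79 to 9.03 (3.26 and 4.13), Fgf7 from 4.47 to 7.08, 7.35 and 7.46 (2.83 and 3.53) and Fgf1 from 3.30, 3.18 and 3.18 to 5.78 (under median, 2.56 and 3.07). In the IGF and imprinted gene list 7 of 28 fell and 2 rose. Mest had the largest measured fall of all named genes, from 11.86, 11.96 and 11.91 to 4.66, 4.74 and 4.74 (-7.20 and -6.64). The binding proteins Igfbp2 (-3.73 and -2.98) and Igfbp3 (-3.73 and -2.85) fell, and the imprinted adaptor Grb10, which dampens insulin receptor signalling, rose from 3.52 to 7.22 (under median, 3.70 and 4.20).

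In the TGF-beta superfamily 3 of 45 rose and 7 fell, near the 4.44% and 12.3% of all genes. Myostatin, the secreted brake on muscle growth, rose from 5.50 on each cycling array to 6.79, 6.99 and 7.18 (Mstn, 1.49 and 2.40), its antagonist follistatin rose as well (Fst, 1.20 and 2.12), and so did Tgfb3 (1.33 and 2.25). Thrombospondin Thbs1 (-3.46 and -2.62), the latent binding protein Ltbp1 (-3.20 and -2.34) and Fstl1 (-2.99 and -2.32) fell. Of 48 Wnt genes 3 rose and 8 fell, also near the shares of all genes. Those that rose were Porcn (2.76 and 3.64), Rspo3 (under median, 1.58 and 2.14) and the antagonist Wif1 (under median, 1.09 and 1.51). The nuclear effectors Tcf7l2 (-3.01 and -2.27) and Lef1 (-2.90 and -2.25) were among the falls. In the Hippo list 7 of 27 fell, including Axl (-3.48 and -2.64), Ccn1 (-3.13 and -2.28) and Tead2 (-2.58 and -1.72), while Tead4 rose. Among immediate early and Myc network genes 7 of 33 fell and 3 rose. Myc went from 8.32 to 5.37, 5.37 and 5.47 (-2.92 and -2.07) and Fosl1 from 7.42 to 3.46 (under median, -3.96 and -3.43). The orphan receptors of the Nr4a family parted, with Nr4a2 falling (-3.79 and -3.20) and Nr4a1 (1.22 and 2.06) and Nr4a3 (low side, 2.79 and 3.25) rising.

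Apoptosis genes fell in 7 of 34 cases with 1 higher, Casp4 (low side, 1.30 and 1.45), which did not pass the filter without any 1 of the day 5 arrays. The initiator caspases Casp8 (under median, -4.0 and -3.47) and Casp2 (-2.75 and -2.03) and Apaf1, the scaffold of the apoptosome, from 7.51, 7.54 and 7.54 to 4.38 (-3.15 and -2.41), were among the falls. In the cytokine list 3 of 36 rose and 8 fell. Csf1, the macrophage growth factor, went from 9.49, 9.51 and 9.51 to 4.14 (-5.36 and -4.81) and the chemokine Cxcl12 from 8.04, 8.06 and 8.09 to 3.54 (under median, -4.52 and -4.03), and the Cxcl12 receptors Cxcr4 and Ackr3 (low side, -2.78 and -2.27) fell with it. The myokines Ostn, musclin (low side, 3.68 and 4.22), and Il15 (low side, 2.92 and 3.40) rose. Among interferon and antigen presentation genes 4 of 29 were lower and 1 higher, near the 12.3% and 4.44% of all genes. The peptide transporter genes Tap1 (-3.37 and -2.66) and Tap2 (-2.93 and -2.08) fell, and Cxcl10 (1.22 and 1.94) rose. The clock genes had 1 of 20 higher, Bhlhe40, and 1 lower, Csnk1d (-2.0 and -1.13), neither share far above that of all genes.

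The nonmuscle cytoskeleton fell broadly, 24 of 51 with 1 higher (median -1.47 and -0.80). Besides Flna, Actb and Tpm4, the regulatory light chain Myl9 fell from 9.45, 9.83 and 9.82 to 4.35 (-5.36 and -4.72), transgelin-2 from 9.09, 9.24 and 9.24 to 4.56 (Tagln2, -4.63 and -3.96) and calponin-2 from 9.31, 9.40 and 9.40 to 5.01 (Cnn2, -4.36 and -3.60). These genes encode the contractile and crosslinking proteins of stress fibres. The member that rose was Cfl2, the muscle cofilin (1.07 and 1.68).

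Matrix and guidance lists are to be read against the 12.3% of all genes that fell and the 4.44% that rose. Among integrins, laminins and basement membrane genes 11 of 50 fell and 1 rose. Fibronectin went from 9.77, 9.98 and 9.83 to 5.31, 5.48 and 5.44 (Fn1, -4.45 and -3.63), tenascin-C from 8.82, 8.93 and 8.90 to 3.58 (Tnc, under median, -5.30 and -4.86) and laminin beta-1 from 8.96, 9.04 and 8.96 to 4.45 (Lamb1, -4.53 and -3.88). Collagen genes had 9 of 57 lower, near that share, among them Col18a1 (-3.30 and -2.49) and Col5a2 (-2.95 and -2.11), and 2 processing enzymes higher, P4ha2 (1.43 and 2.36) and P3h2 (under median, 1.14 and 1.79). Of 56 proteases and inhibitors 13 fell, Timp1 from 9.82, 9.89 and 10.03 to 6.24, 6.33 and 6.33 (-3.61 and -2.73) and the membrane protease Mmp14 from 8.24 to 4.84 (-3.40 and -2.60) among them. Those that rose, 5 in number, were all ADAMTS or ADAMTS-like genes, Adamts5 (1.69 and 2.54) and Adamts1 (1.5 and 2.40) among them. The family did not move as one, since Adamts6 (under median, -3.39 and -2.78) and Adamts4 (-2.90 and -2.13) were among the falls. Of 67 guidance and gap junction genes 19 fell and 3 rose. The ligands Efnb2 (under median, -4.59 and -4.07) and Sema3e (-4.44 and -3.58), the receptor Epha1 (under median, -4.19 and -3.68) and the connexin Gjc1 (under median, -4.22 and -3.72) fell furthest, and Sema3c (1.39 and 2.09), Sema6c (1.16 and 2.09) and Robo2 (under median, 1.46 and 1.86) rose.

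Short motifs in the DNA upstream of the higher genes, the lower genes and the members of some lists are described here, with no test. The windows of a list are those of its tested members, called or not. RefSeq (build GRCm38.p6) gave the 250 bases upstream of the start site for 13007 of the tested genes, 576 of them higher and 1627 lower at day 5. Motifs were counted on both strands. The E-box CAGCTG, the form that MyoD and myogenin bind, stood in 12.6% of all windows, 18.4% of those of higher genes, 32.2% of the 59 windows of the contractile lists and 42.9% of the 14 of excitation-contraction coupling. A MEF2 motif, a search added after the data were seen, stood in 1.73% of all windows, 6.77% of those of higher genes and 18.6% of those of the contractile lists. TATAAA stood in 8.09%, 12.5% and 20.3% of these groups, and in 0 of the 14 windows of excitation-contraction coupling. The median window of the contractile lists held 5 CpG dinucleotides, against 14 over all genes. A match is only a run of letters and says nothing of binding.

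The windows of 3 genes are shown as examples of a contractile, a glycolytic and a respiratory gene that rose and whose window holds CAGCTG, with other motifs in the first and second (capitals mark matches on either strand to CAGCTG, to the TATA motif or to the MEF2 motif; in Myh4 a TATAAA match on the opposite strand overlaps the MEF2 match). They lie on the plus strand at chr11:67237562-67237811 for Myh4, on the minus strand at chr11:5803797-5804046 for Pgam2 and on the minus strand at chr7:140900447-140900696 for Cox8b.
Myh4: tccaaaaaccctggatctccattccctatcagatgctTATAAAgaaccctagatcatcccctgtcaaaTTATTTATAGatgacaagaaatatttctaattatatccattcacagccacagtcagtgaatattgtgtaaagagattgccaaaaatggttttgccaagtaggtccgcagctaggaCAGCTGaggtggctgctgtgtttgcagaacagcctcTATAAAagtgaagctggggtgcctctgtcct
Pgam2: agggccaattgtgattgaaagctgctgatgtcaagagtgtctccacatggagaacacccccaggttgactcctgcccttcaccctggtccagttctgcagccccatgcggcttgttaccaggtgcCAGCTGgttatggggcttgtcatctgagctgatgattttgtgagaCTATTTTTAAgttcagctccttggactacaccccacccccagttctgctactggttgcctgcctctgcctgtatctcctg
Cox8b: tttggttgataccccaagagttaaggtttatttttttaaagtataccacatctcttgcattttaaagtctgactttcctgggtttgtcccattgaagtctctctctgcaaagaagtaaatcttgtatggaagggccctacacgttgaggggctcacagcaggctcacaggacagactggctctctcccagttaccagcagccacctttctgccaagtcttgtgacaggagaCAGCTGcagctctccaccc
The Myh4 window held 1 CpG, 1 CAGCTG, 1 MEF2 match and 3 TATAAA matches, that of Pgam2 1 CpG, 1 CAGCTG and 1 MEF2 match, and that of Cox8b 1 CpG, 1 CAGCTG and no match to MEF2 or TATAAA.

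Promoters of the division genes carried another pair of motifs. The CHR element TTTGAA, bound by a repressor complex of resting cells, stood in 37.0% of the 54 windows of the kinetochore and spindle list against 11.0% of all, and CCAAT in 68.5% against 35.3%. In the 41 windows of the DNA replication list CCAAT stood in 53.7% and CHR in 9.76%, while an E2F site (TTTGGCGC or TTTCCCGC) stood in 17.1% against 2.21% of all. CCAAT was as frequent among the sterol genes, at 74.1% of 27 windows, a list with 12 of 35 members higher, 2 lower and 21 not called. The division lists each had a median of 18 CpG dinucleotides.

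The windows of 2 division genes with both motifs are shown (capitals: TTTGAA or CCAAT, or the same on the opposite strand, TTCAAA or ATTGG). The windows lie on the minus strand at chr11:99024190-99024439 for Top2a and at chr9:70421555-70421804 for Ccnb2.
Top2a: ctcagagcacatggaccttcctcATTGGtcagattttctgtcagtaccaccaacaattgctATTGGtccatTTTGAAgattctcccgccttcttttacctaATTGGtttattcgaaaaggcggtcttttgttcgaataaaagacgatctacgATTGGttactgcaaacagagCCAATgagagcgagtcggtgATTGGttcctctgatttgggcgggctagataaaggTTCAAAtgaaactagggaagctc
Ccnb2: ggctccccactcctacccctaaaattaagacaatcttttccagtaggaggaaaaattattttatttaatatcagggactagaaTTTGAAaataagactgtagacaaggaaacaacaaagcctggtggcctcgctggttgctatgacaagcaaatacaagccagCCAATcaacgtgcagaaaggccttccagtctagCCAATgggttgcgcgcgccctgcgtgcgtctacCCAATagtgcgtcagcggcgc
The Top2a window held 6 CCAAT and 2 TTTGAA matches, and that of Ccnb2 3 and 1.

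**Figure D5:**
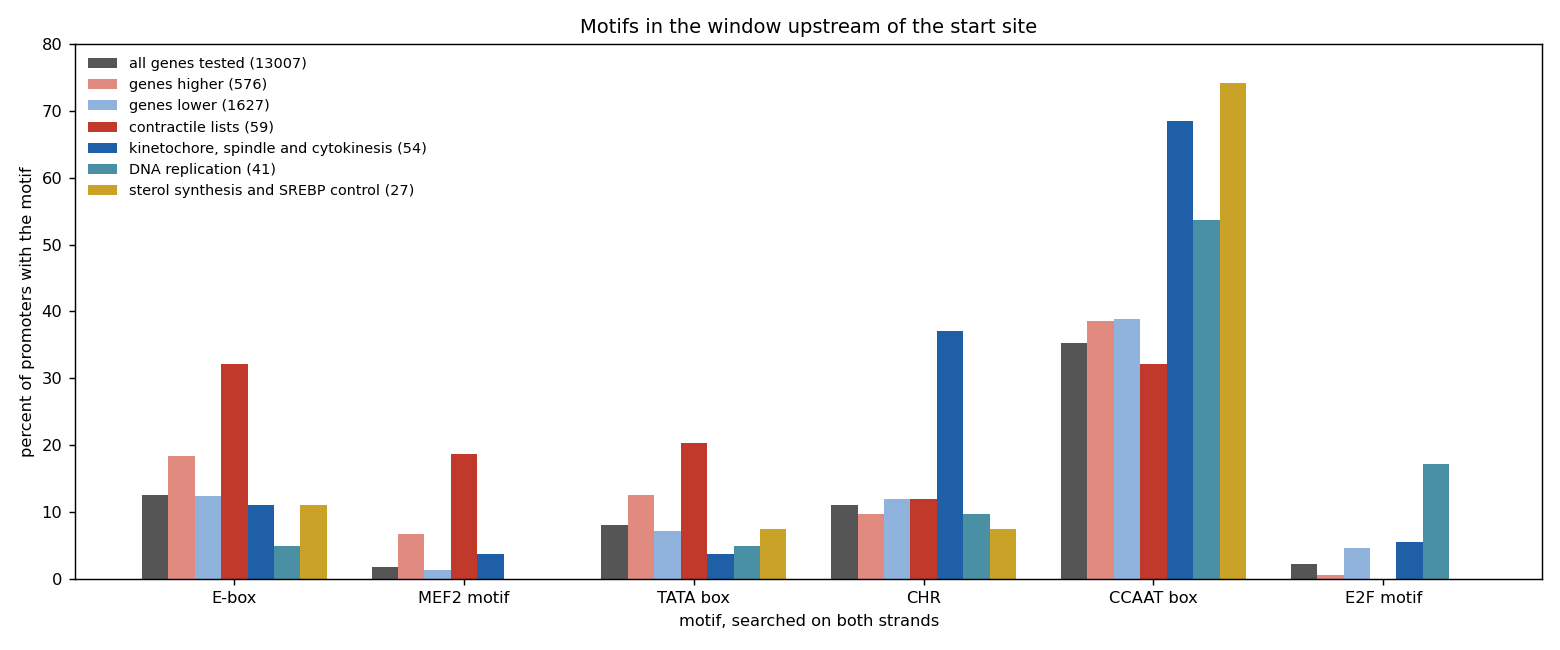
Percent of upstream windows (y axis) that hold each of 6 motifs (x axis), for all tested genes, the genes higher and lower at day 5 and 4 groups of gene lists, with the number of windows in parentheses. Among the groups drawn, E-box, MEF2 and TATA motifs are most frequent in the contractile lists (32.2%, 18.6% and 20.3%), CHR in the kinetochore and spindle list (37.0%), E2F in the DNA replication list (17.1%) and CCAAT in the sterol list (74.1%).

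Among small noncoding RNA genes, many snoRNA genes fell. Of 51 snoRNA genes, whose RNAs guide modification of ribosomal RNA, 28 fell and 0 rose, with 12 of the 28 low side, against 12.3% of all tested genes that fell. The median difference was -1.51 and -1.08. Of 165 microRNA genes 22 fell, a share near the 12.3% of all genes, 16 of them low side, and 1 rose (Mir133a-1, low side, named after its values were seen). Mir206, also named after its values were seen, differed the other way at a low level (-1.80 and -1.63). Its means of 3 arrays were 3.69 in cycling cells and 1.89 at day 5. The probe sets read hairpins or their primary transcripts and not mature microRNAs. The genes of the miR-17 to miR-19b cluster on the plus strand of chromosome 14 (GRCm38.p6, chr14:115043684-115044380), a growth-promoting cluster, all fell: Mir17 from 3.73 to 2.42 (-1.32 and -1.20), Mir18 from 4.76 to 1.64 (-3.12 and -2.70), Mir19a from 3.26 to 0.72 (-2.54 and -2.14), Mir20a from 4.60 to 2.23 (-2.38 and -2.08) and Mir19b-1 from 4.39 to 1.19 (-3.20 and -2.77), as means of 3 arrays and all low side. None exceeded the filter value at day 5, so they passed it through arrays of other time points, which makes a fall likelier to be called than a rise. The cycling means of Mir17 and Mir19a also lay under the cycling array median of 4.34. The genes of the cluster share a primary transcript, so they are not independent of each other. Their mature products fall into families by the seed (bases 2 to 8, capitals), which sets their targets, with miR-17-5p and miR-20a-5p sharing one seed and miR-19a-3p and miR-19b-3p another.
miR-17-5p: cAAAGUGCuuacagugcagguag
miR-20a-5p: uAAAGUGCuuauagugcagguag
miR-18a-5p: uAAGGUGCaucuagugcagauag
miR-19a-3p: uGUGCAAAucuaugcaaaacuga
miR-19b-3p: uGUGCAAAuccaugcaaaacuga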

How the data were processed

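Gene expression had been measured on 9 arrays, 3 per time point, and the log2 values were used as deposited. They come from RMA, per the submitters' processing notes, applied to each replicate set, per the design text, with no version stated. The values show that the sets were the time points: the sorted values of arrays differed by 0.0251 on average at most within a time point and by at least 0.188 between them, and 47.9% of probe sets in cycling myoblasts and 56.7% at day 5 had one value on all 3 arrays (tolerance 1e-06). SDs, SEs and p-values are therefore too small. Arrays correlated at r of at least 0.990 within both groups and at 0.902 to 0.906 between them.

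Of 35556 probe sets 21789 name 1 gene, 1621 several and 12146 none. The highest-mean probe set stood for each of 19938 genes, and 16582 above the 30th percentile of the array on at least 3 arrays were tested. limma 3.58.1 (R 4.3.3) fitted a mean per time point to all 9 arrays on both scales, with Benjamini-Hochberg adjustment. On simulated data 196 of 200 changed genes were recovered with 0 false calls. The simulated arrays had independent noise, no normalization within a time point and no offset between time points. This checks only that the fit runs correctly and gives no error rate for these data. Named genes are the 12 highest and 12 lowest, up to 4 per direction of each list, the pairs and fixed markers. Members, lists and pairs were chosen with earlier results of these data known, so counts over lists are descriptions without a test. Of 283 other probe sets of called genes 265 changed in the same direction on both scales. Precision is limited by 3 arrays per group.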

Additional observations from a re-analysis of the deposited data

How the results depend on the processing

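The choice of scale moved the counts most. On the common scale alone 1960 genes were higher, as deposited alone 4840 were lower, and with equal array medians in place of quantile normalization 3336 were lower. Higher genes made up 26.5% of the called genes in the main analysis, 13.2% as deposited alone, 49.0% on the common scale alone and 18.1% with equal medians. Leaving out each array in turn gave 702 to 740 higher and 1898 to 2065 lower genes. The other alternatives, which changed the filter, the probe set rule, the arrays fitted, the variance model or the 2-fold test, kept both counts within 1.5 times. With the replicate number as a block the counts were 736 and 2040, but arrays with one number did not deviate together (correlations 0.083, 0.0155 and 0.0304), so the numbers were not taken as pairs. Of 289 named genes followed, the uncalled Myh7 (0.31), Mymx (0.23), Plin1 (0.27), Pparg (0.044) and Stac3 (0.42) changed sign on the common scale alone; the cause was not tested. A 2-fold minimum in the test (limma treat) ended the call of Atp2a2, Jam2, Mdm2, Mir133a-1, Musk and Smyd1, and the mean of all probe sets that of Pdia4 (-1.43), Rbpj and Tpm3. Mir17 was not called with equal medians. Low signal limits the size of low side changes.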

Other observations

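Of the 2776 called genes 661 stood in the 54 lists, 238 higher and 423 lower. The genes named here lay outside the lists and were picked by the size of their difference after their values were seen, leaving out low side changes. Several that rose are known from striated muscle. Fhl1, a LIM domain protein, read 5.47, 5.56 and 5.56 in cycling myoblasts and 9.24 on each day 5 array (3.71 and 4.56), and Popdc2, a membrane protein of heart and muscle, read 5.68 and then 9.20 on each array (3.53 and 4.38). Cmya5, which binds desmin, rose from 4.38 to 8.08, 8.19 and 8.44 (3.86 and 4.51), with a wider spread at day 5 than Fhl1. Coq8a, needed to make coenzyme Q, rose from 5.96 to 9.77, 9.68 and 9.72 (3.77 and 4.62), and Chchd10 of the mitochondrial intermembrane space from 6.29 to 9.79 (3.50 and 4.34). Ndrg2 rose most of those in no list, from 5.72 to 10.18 on each array (4.45 and 5.24).

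Some genes that fell add to the groups above. The replication-linked protein gene Pclaf fell from 9.27 to 3.91 on each array (under median, -5.37 and -4.87), the checkpoint ATPase Trip13 from 8.76 to 3.50 (under median, -5.26 and -4.82) and the linker histone H1f5 from 10.48, 10.46 and 10.46 to 4.86 (-5.61 and -4.85). Actin-binding proteins in no list fell as well, fascin from 9.99, 10.28 and 10.12 to 5.21 (Fscn1, -4.92 and -4.10) and coronin-1C from 9.97, 10.01 and 9.97 to 5.06, 5.06 and 5.03 (Coro1c, -4.94 and -4.15). Secretin, a gut hormone, read 10.21 on each cycling array and 4.47, 4.56 and 4.56 at day 5 (Sct, -5.68 and -4.98), and Dpysl3, a cytoskeletal regulator best known from neurons, fell from 9.25, 9.30 and 9.25 to 3.58 (under median, -5.68 and -5.26).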
